A study of Mus musculus with 8 samples.

Results

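The genes described here are 35 listed targets of the transcription factor p53. They were taken by symbol from the 23432 gene symbols counted in each of 8 bulk RNA-seq libraries of mouse skin. Binding by p53 was not measured for these genes. They fall into 8 genes of cell cycle arrest and growth control, 11 of apoptosis, 5 that feed back on p53, 3 of DNA repair and nucleotide supply, and 8 of stress response and metabolism. In embryos at E16.5, epithelial cells carrying the Krt14-H2BGFP reporter, a green fluorescent histone made in Krt14-expressing cells, were sorted from back skin of 2 control embryos and of 2 MOF cKO embryos (MOFfl/fl/K14Cre), in which Krt14-Cre deletes the histone acetyltransferase MOF (gene Kat8) in the skin epithelium. In newborns at P0.5, total epidermis was lifted off with dispase from 2 control pups and from 2 Kansl1 cKO pups (Kansl1fl/fl/K14Cre), in which the same Cre removes exon 3 of Kansl1, a subunit of the NSL complex that holds MOF. Controls were wild-type or heterozygous littermates, the background was mixed C57Bl/6J and CD-1, the deletions were limited to cells with a history of Krt14 expression, and sorting was done at E16.5 only. The comparisons asked how p53 target RNA stood after loss of MOF and after loss of Kansl1.

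p53 is kept low by the ubiquitin ligase Mdm2 and accumulates after DNA damage, ribosomal stress or other insults. It then binds DNA as a tetramer and switches on genes that halt the cell cycle, repair DNA or kill the cell, together with genes such as Mdm2 and Ppm1d that turn it off again. In the epidermis p53 shares its sites with its relative p63, which keeps genes such as Perp on in normal skin.

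Reads on genes numbered 22484018 to 27561688 per library at E16.5 and 9108709 to 19774643 at P0.5, so that 1 count stood for 0.0326 to 0.0502 CPM (counts per 1000000 counts on genes, rescaled with TMM factors within an experiment) at E16.5 and for 0.0484 to 0.115 CPM at P0.5. The basal keratins Krt5 and Krt14 were at 8398 to 21611 and 4384 to 12266 CPM across all libraries. The targeted gene Kat8 was at 14.4 and 14.7 CPM in the E16.5 control libraries and 12.4 and 13.9 CPM in MOF cKO, and Kansl1 was at 40.7 and 48.2 CPM in the P0.5 control libraries and 31.4 and 30.6 CPM in Kansl1 cKO, and counts per gene do not show whether the deleted exons were lost. Sex differed within both control groups: Xist, made from the inactive X chromosome of females, was high in E16.5 control replicate 1 (1518 CPM) and in 3 of the P0.5 libraries, and near background in the others (1.23 CPM in P0.5 control replicate 2). Both MOF cKO libraries were low in Xist (12.0 and 9.99 CPM) and both Kansl1 cKO libraries high (371 and 423 CPM). Sex was therefore not balanced between genotypes in either experiment. The labels do not say whether libraries of a group came from separate litters, so p-values measure the spread between these libraries only. Calls required a change of more than 1.5-fold and, in the quasi-likelihood test of edgeR, an adjusted p of at most 0.01.

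A p53 response element is built from a pair of 10-base units, each a consensus decamer whose pattern is its own reverse complement, so that 1 search covered both strands. RefSeq promoter windows, 250 bases before to 50 after an annotated start in GRCm38.p6 (the sequence of mm10), were found for 27 of the 35 genes, and 12 of these held at least 1 exact decamer (44.4%), beside 9.55% of all 27025 genes with a window. The 12 were Cdkn1a, Gadd45a, Bax, Aen, Ei24, Mdm2, Ppm1d, Ccng1, Rps27l, Polk, Sesn1 and Abhd4. No window was found for Ptp4a3, Zmat3, Pmaip1, Tnfrsf10b, Perp, Trp53inp1, Ddb2 and Rrm2b. The stretches printed here are those of genes called in MOF cKO in which the decamer lay before the gene's start in both RefSeq and GENCODE, 1 of arrest, 1 of apoptosis and 3 of feedback. They run 5′ to 3′ on the gene's own strand, with the decamer in capitals.
Cdkn1a: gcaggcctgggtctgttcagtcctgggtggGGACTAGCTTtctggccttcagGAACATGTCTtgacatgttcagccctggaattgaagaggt
Bax: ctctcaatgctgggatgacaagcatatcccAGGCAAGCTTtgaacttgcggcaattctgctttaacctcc
Mdm2: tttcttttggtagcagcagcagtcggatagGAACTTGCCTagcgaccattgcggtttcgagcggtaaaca
Ppm1d: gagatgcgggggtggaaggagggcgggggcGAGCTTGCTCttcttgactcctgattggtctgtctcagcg
Ccng1: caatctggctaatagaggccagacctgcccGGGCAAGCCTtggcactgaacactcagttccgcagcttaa

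The Cdkn1a stretch lay at chr17:29090876-29090967 (plus strand), with decamers beginning 73 and 51 bases before the start. The others lay at chr7:45467060-45467129 (minus strand) for Bax, chr10:117710905-117710974 (minus strand) for Mdm2, chr11:85311092-85311161 (plus strand) for Ppm1d and chr11:40755432-40755501 (minus strand) for Ccng1, with the decamer 201, 186, 132 and 185 bases before the start. A match is a description of these letters and not a site shown to be bound. Only exact decamers were marked. In the Cdkn1a stretch the 10 bases directly after the second decamer match its pattern in all but their first base. The windows leave out sequence farther from the annotated starts, such as the intronic p53-responsive promoter of Mdm2. Of the 12 genes with a decamer 10 were called higher in MOF cKO, as were 12 of the 15 with a window and no decamer and 6 of the 8 with no window. The share over all genes tested was 10.0%. Whether calls went with the decamer was not tested.

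In MOF cKO most p53 targets were higher, among them all of the apoptosis and feedback genes and most of the arrest genes. All 35 genes had enough counts to be tested, but Gdf15 passed the count filter through its MOF cKO libraries alone. Being nearly absent from control, it could be tested only if it was higher in MOF cKO. It counts below among the genes without overlap and those at an unadjusted p under 0.05, but not among those called. Of the 35, 28 were called higher and 1 lower, where 10.0% of all 13956 genes tested were called higher and 9.59% lower. Their log2 fold changes had a median of 1.56, against -0.02 over all genes tested. Both MOF cKO libraries lay above both controls for 30 of the 35 and below both for 3, beside 34.9% and 37.7% of all genes. At an unadjusted p under 0.05, 30 were higher and 2 lower, beside 23.7% and 25.1%, and DESeq2 called 28 higher and 2 lower, beside 12.0% and 11.7%. Within single libraries the median log2 ratio of the 35 to the control mean was 1.47 and 1.69 in the MOF cKO libraries. The 35 genes were listed with earlier results of these data known. These and later contrasts with all genes are therefore descriptions and not independent evidence.

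**Figure D1:**
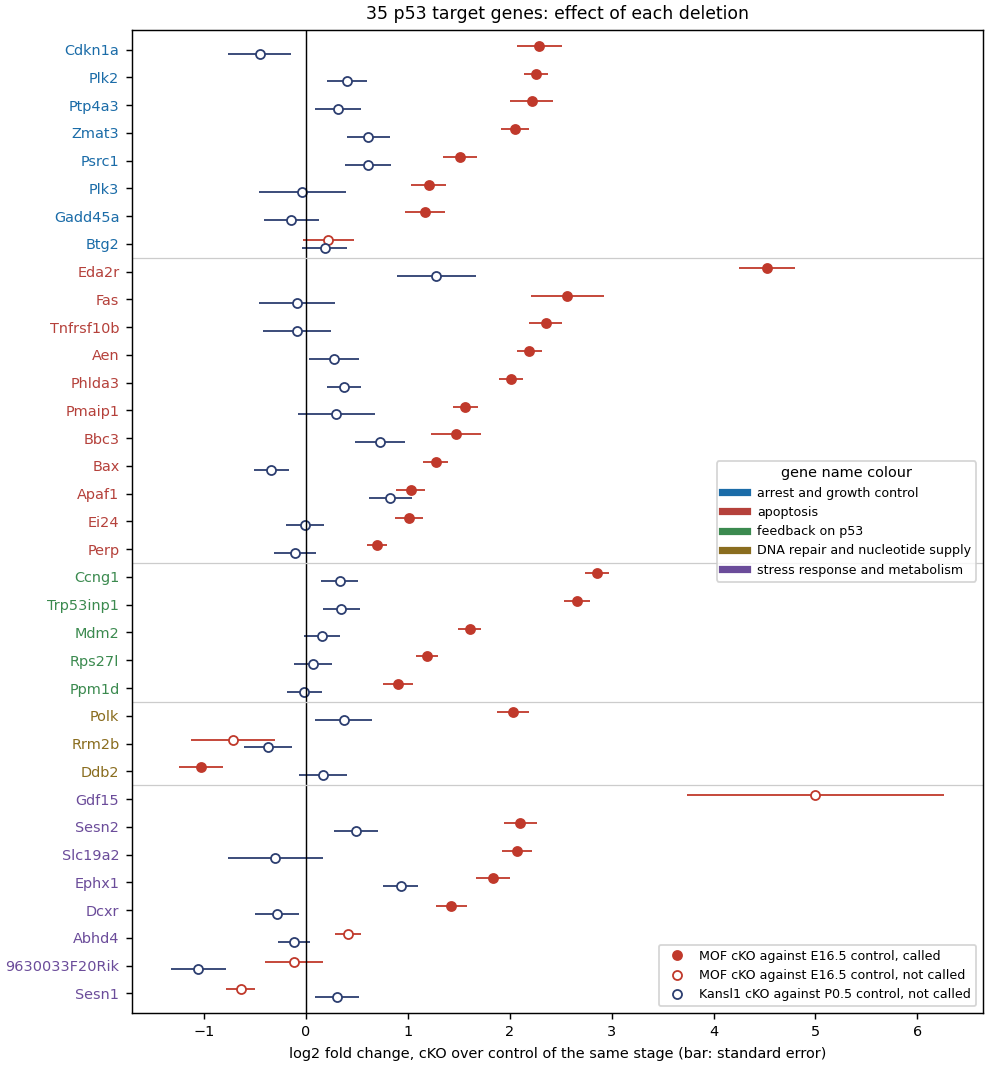
Log2 fold change (x axis) of each of the 35 p53 target genes (rows, grouped by role) in MOF cKO at E16.5 (red) and in Kansl1 cKO at P0.5 (blue), with bars of 1 standard error and filled points for called genes. In MOF cKO 28 genes were called higher and 1 lower, beside 10.0% and 9.59% of all genes tested. In Kansl1 cKO 0 were called, beside 0.00% of all genes tested. Gdf15 was not tested in Kansl1 cKO.

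Among the genes of arrest and growth control, 7 of 8 were called higher in MOF cKO, with log2 fold changes of 1.16 to 2.29. Cdkn1a encodes p21, the inhibitor of cyclin-dependent kinases through which p53 halts the cycle. It lies on the plus strand of chromosome 17, at chr17:29090976-29100727 in mm10. Its level was 88.4 and 126 CPM in the control libraries and 438 and 611 CPM in MOF cKO, a 4.90-fold rise (log2 fold change 2.29, standard error 0.22, adjusted p = 0.000602, edgeR quasi-likelihood test). Both MOF cKO libraries were more than 3 times as high as either control. Exons of the opposite-strand gene AC167363.2 overlap Cdkn1a, and the strand setting of the counting is not given in the sources used here.

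The polo-like kinases Plk2 and Plk3, both stress-induced, rose from 81.0 and 84.2 to 363 and 428 CPM and from 34.3 and 47.0 to 86.2 and 101 CPM, Plk3 overlapping exons of the opposite-strand gene Tctex1d4. Zmat3, an RNA-binding protein that restrains growth, rose from 28.1 and 30.5 to 110.0 and 133 CPM, and the phosphatase Ptp4a3 from 16.8 and 21.0 to 70.5 and 105 CPM. Psrc1, a spindle protein, rose from 41.0 and 42.1 to 99.1 and 137 CPM. In each of these 5 the MOF cKO libraries did not overlap the controls, and the fold changes ran from 2.30 in Plk3 to 4.79 in Plk2. Gadd45a, a growth arrest and repair protein, rose from 12.4 and 17.7 to 32.6 and 34.6 CPM, 2.24-fold (adjusted p = 0.00396, edgeR), and also shares exonic sequence with an opposite-strand gene, E230016M11Rik. Btg2, an antiproliferative cofactor that is an early response gene as well, was the exception. It was at 226 and 398 CPM in control and 318 and 408 CPM in MOF cKO, and the libraries overlapped (log2 fold change 0.22, standard error 0.25, adjusted p = 0.525, edgeR).

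**Figure D2:**
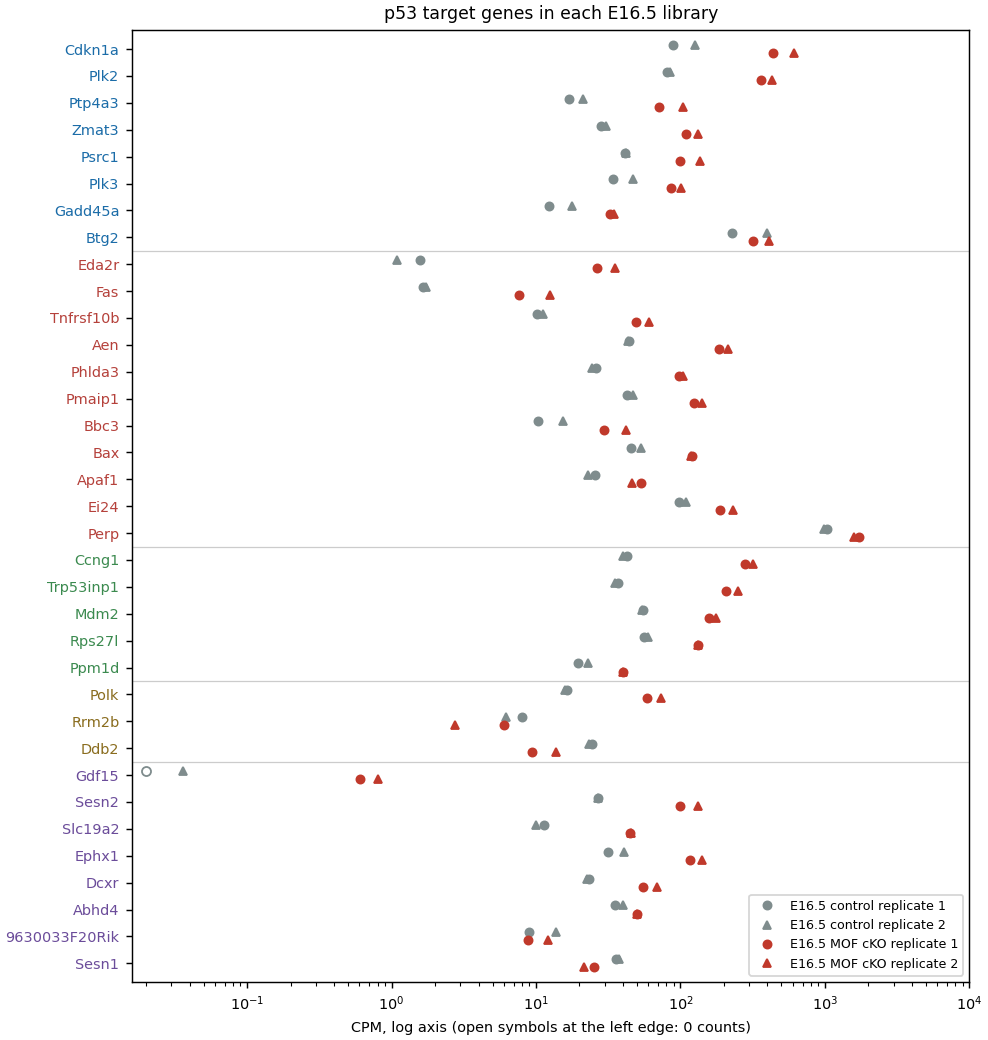
Level of each p53 target gene in the 4 E16.5 libraries, in CPM on a log axis, with grey for control, red for MOF cKO, circles for replicate 1 and triangles for replicate 2. Both red points lie above both grey points for 30 of the 35 genes and below both for 3, beside 34.9% and 37.7% of all genes tested. Red and grey overlap for Btg2 and 9630033F20Rik. Gene names are coloured by role as in the plot of log2 fold changes.

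All 11 apoptosis genes were called higher in MOF cKO, and their log2 fold changes had a median of 1.56. The 3 receptors of the group rose most. Eda2r, a receptor of the tumour necrosis factor family on the X chromosome (chrX:97333840-97377216, minus strand), was at 1.57 and 1.08 CPM in control and 26.3 and 35.1 CPM in MOF cKO, a 23.0-fold rise (log2 fold change 4.52, standard error 0.27, adjusted p = 0.000176, edgeR). The control with high Xist and the control without it were both under 2 CPM. Fas rose from 1.66 and 1.73 to 7.68 and 12.4 CPM, 5.92-fold, and Tnfrsf10b, the mouse receptor for the ligand TRAIL, from 10.2 and 11.2 to 49.0 and 60.4 CPM, 5.12-fold. For these 3 receptors each MOF cKO library was more than 4 times as high as either control.

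The BCL2 family triggers of mitochondrial apoptosis rose less. Bax, the pore-forming member, went from 45.1 and 53.4 to 119 and 119 CPM. Bbc3 (PUMA) went from 10.4 and 15.5 to 29.5 and 41.9 CPM and Pmaip1 (NOXA) from 42.4 and 47.1 to 124 and 140.1 CPM. Their fold changes were 2.42, 2.77 and 2.95. Apaf1, which assembles the apoptosome, was at 25.7 and 22.9 CPM in control and 53.2 and 46.1 CPM in MOF cKO, 2.04-fold higher.

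Aen, a nuclease induced by p53, rose 4.58-fold from 43.9 and 43.6 to 186 and 215 CPM. Phlda3, which holds back the kinase Akt, rose 4.03-fold from 25.9 and 24.2 to 98.1 and 104 CPM. Neither gene overlapped between the genotypes. Ei24 rose from 97.1 and 109 to 186 and 229.7 CPM, 2.02-fold, and is one of the genes with an overlapping opposite-strand gene (Gm26787). Perp, a desmosomal protein needed for epidermal adhesion, had the highest level and the smallest change of the group, from 1037 and 991 to 1711 and 1584 CPM (log2 fold change 0.70, standard error 0.10, adjusted p = 0.00203, edgeR).

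All 5 feedback genes were called higher. Ccng1, a cyclin that helps the phosphatase PP2A activate Mdm2, was at 42.5 and 39.9 CPM in control and 280.0 and 315 CPM in MOF cKO, 7.22-fold higher and with the smallest adjusted p of the 35 genes (log2 fold change 2.85, standard error 0.12, adjusted p = 5.82e-05, edgeR). It lies at chr11:40748552-40755311 on the minus strand. Trp53inp1, a stress protein that promotes p53 activity and so feeds back positively, rose 6.33-fold from 36.9 and 35.3 to 208 and 248 CPM. Mdm2, the ligase that marks p53 for degradation, rose 3.05-fold from 55.1 and 54.3 to 156 and 177 CPM. For these 3 genes the genotypes lay far apart and the 2 libraries of a genotype close together. Rps27l, a ribosomal protein paralog that steadies p53 levels, rose 2.28-fold from 55.8 and 59.8 to 132 and 131 CPM, and is uncertain where reads were split with near-identical copies. Ppm1d, the phosphatase that removes activating phosphates from p53, rose least, from 19.6 and 23.0 to 39.7 and 39.8 CPM (log2 fold change 0.90, standard error 0.14, adjusted p = 0.00324, edgeR).

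The 3 repair genes went separate ways. Polk, a DNA polymerase that copies past lesions, rose 4.09-fold from 16.4 and 15.8 to 58.6 and 73.3 CPM. Ddb2, which recognises ultraviolet damage, was the 1 listed gene called lower. It was at 24.3 and 23.1 CPM in control and 9.39 and 13.8 CPM in MOF cKO (log2 fold change -1.03, standard error 0.21, adjusted p = 0.00881, edgeR). That call rested near the threshold and was lost without MOF cKO replicate 1 (log2 fold change -0.79, adjusted p = 0.0174, edgeR), and Ddb2 shares exonic sequence with Acp2 on the other strand. Rrm2b, the p53-inducible subunit of ribonucleotide reductase, was at 8.06 and 6.21 CPM in control and 5.97 and 2.75 CPM in MOF cKO, lower in both libraries but not called (log2 fold change -0.72, standard error 0.41, adjusted p = 0.206, edgeR). Its exons overlap those of Gm49085 on the opposite strand.

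Of the 8 genes of stress response and metabolism, 4 were called higher. Sesn2, a sestrin that restrains growth signalling under stress, rose from 26.9 and 26.8 to 98.8 and 132 CPM. The thiamine transporter Slc19a2 rose from 11.4 and 10.0 to 44.6 and 45.5 CPM. Ephx1, an epoxide hydrolase, rose from 31.5 and 40.6 to 116 and 141 CPM and Dcxr, a sugar reductase, from 23.4 and 22.6 to 54.6 and 68.9 CPM. The 4 fold changes ran from 2.69 in Dcxr to 4.30 in Sesn2, with adjusted p of 0.000773 or lower in edgeR. Sesn1, the other sestrin, was at 35.9 and 37.3 CPM in control and 25.3 and 21.6 CPM in MOF cKO, so that both MOF cKO libraries were below both controls while Sesn2 was above. It missed the threshold in edgeR (log2 fold change -0.64, standard error 0.14, adjusted p = 0.012) and passed it in DESeq2 (log2 fold change -0.62, adjusted p = 0.00778).

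Gdf15, a secreted stress cytokine, was almost undetected: 0 and 1 counts in the control libraries and 12 and 19 counts in MOF cKO. The ratio of the summed counts per scaled read was 41.6, with an exact 95% interval of 6.93 to 1694 that covers counting error only, and its adjusted p was 0.0183 in edgeR. Abhd4, a lipid hydrolase, was at 35.0 and 40.3 CPM in control and 50.2 and 49.9 CPM in MOF cKO and was not called (log2 fold change 0.41, adjusted p = 0.0399, edgeR). 9630033F20Rik, now named Tigar and known to lower glycolysis, was at 8.94 and 13.7 CPM in control and 8.73 and 12.1 CPM in MOF cKO, with overlapping libraries (log2 fold change -0.12, adjusted p = 0.769, edgeR), and its exons overlap those of the opposite-strand gene Platr31.

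The scaling bore on how many targets passed. With library size alone in place of TMM, the median moved to -0.32 for all genes and to 1.26 for the 35 (log2). The calls were then 25 higher and 2 lower among the 35, beside 769 higher and 2743 lower among all genes, against 1395 and 1338 with TMM. Leaving out any 1 of the 4 libraries gave 28 or 29 targets called higher, with all of the 28 still among them.

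Upstream of the targets, RNA of the p53 gene itself was higher in MOF cKO. Trp53 was at 274 and 272 CPM in control and 594 and 595 CPM in MOF cKO (log2 fold change 1.12, standard error 0.097, adjusted p = 0.00049, edgeR). Mdm4, the partner of Mdm2 that blocks p53, was at 61.2 and 41.2 CPM and 61.5 and 35.6 CPM, and its libraries overlapped (log2 fold change -0.08). Trp63, the gene of p63, was at 708 and 632 CPM in control and 484 and 417 CPM in MOF cKO. It fell 1.49-fold, short of the fold threshold, and was not called (log2 fold change -0.57, standard error 0.12, adjusted p = 0.0087, edgeR). Of 20 genes that regulate p53, 19 were tested, 3 were called higher and 3 lower in edgeR, 15.8% each way beside 10.0% and 9.59% of all genes, and 3 higher and 5 lower in DESeq2. Their median log2 fold change was -0.12. The ribosomal proteins Rpl5 and Rpl11, which bind Mdm2 under ribosomal stress, were higher with log2 fold changes of 0.85 and 1.05. The DNA damage signalling genes Chek2, Prkdc and Trp53bp1 were lower, with -0.82, -1.19 and -1.20. Of these 6, Trp53, Rpl11 and Rpl5 had the smallest p-values.

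A further 28 genes known as p53 targets in other cells and kept apart from the 35 were read beside them. Of 26 tested, 3 were called higher and 0 lower in edgeR, 11.5% and 0%, where 10.0% and 9.59% of all genes were. DESeq2 called 5 higher and 0 lower, and at an unadjusted p under 0.05 in edgeR 7 were higher and 5 lower. Their median log2 fold change was -0.08, beside 1.56 for the 35. The 3 were 4933426M11Rik (now Susd6) at 96.7 and 88.3 CPM in control and 203 and 200.4 CPM in MOF cKO, the early response gene Ier5 at 51.3 and 77.9 and 150.4 and 189 CPM, and the cytokine Lif at 0.457 and 0.578 and 4.82 and 14.9 CPM. Dram1 and Kitl, with log2 fold changes of 1.74 and 0.63, were called higher in DESeq2 but not in edgeR. Of the 23 not called in edgeR, 8 had log2 fold changes above 0 and 15 below.

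**Figure D3:**
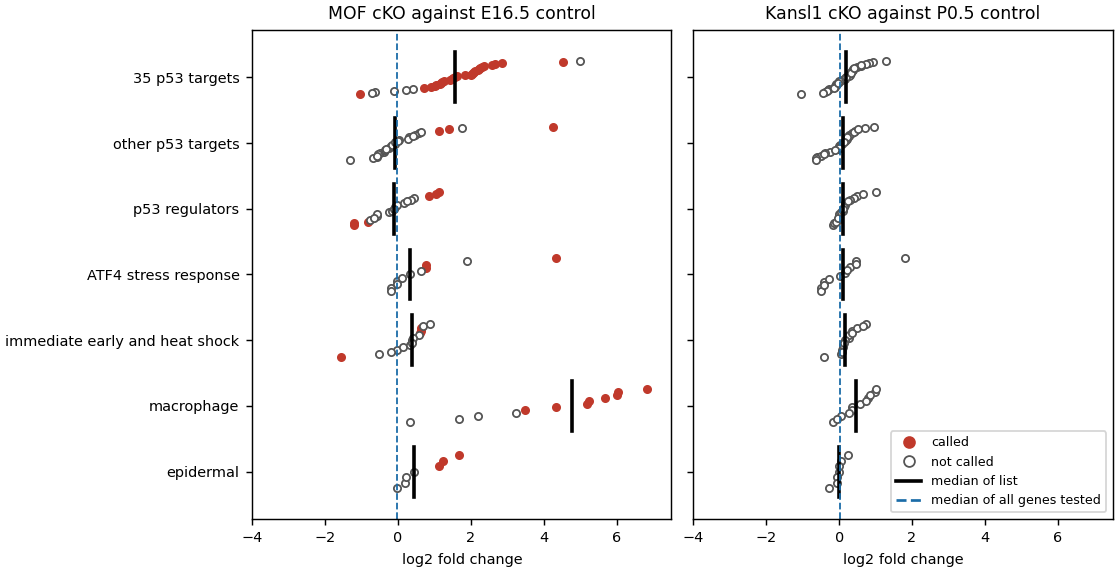
Log2 fold change (x axis) of each tested gene of 7 gene lists (rows) in MOF cKO against E16.5 control (left) and Kansl1 cKO against P0.5 control (right). Filled points were called, the black bar is the list's median and the dashed line the median of all genes tested. In MOF cKO the median was 1.56 for the 35 p53 targets, -0.08 for the other p53 targets and 4.76 for the macrophage markers.

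Genes of other stress programmes and other cell types were measured in the same libraries, and the calls in these lists are to be read beside the 10.0% of all genes called higher and the 9.59% called lower. ATF4, the factor of the integrated stress response, can also induce Sesn2 and Gdf15. Of its pathway genes, 3 of 11 were called higher, Slc7a11 from 1.76 and 0.903 to 34.1 and 20.03 CPM, Atf4 from 275 and 291 to 457 and 504 CPM and Asns from 40.4 and 34.8 to 63.9 and 64.1 CPM. Of 15 immediate early and heat shock genes, which respond to cell isolation, 3 were called higher and 1 lower, and their summed level was 7231 to 9263 CPM in the controls and 10336 to 11023 CPM in MOF cKO. The smallest p-values were those of Egr2, Hspa1b and Egr1, with log2 fold changes of -1.57, 0.63 and 0.64. Macrophage markers were higher for 12 of 12 genes and called for 8, their sum being 21.9 to 46.9 CPM in the controls and 112 to 142 CPM in MOF cKO, with Csf1r at 0.196 and 0.903 CPM in control and 10.3 and 11.6 CPM in MOF cKO. Of the dermal fibroblast markers 6 of 7 were higher in MOF cKO with 0 called (2 in DESeq2), at 917 to 1552 and 1544 to 2152 CPM in all, melanocyte markers summed to 19.1 to 46.3 and 18.4 to 67.6 CPM, and endothelial markers to 6.16 to 7.22 and 10.8 to 22.3 CPM. In bulk RNA, more cells of a type and more RNA per cell cannot be told apart. Among epidermal genes the suprabasal keratins Krt1 and Krt10 and Sfn, itself a p53 target in other cells, were called higher, Krt1 from 1549 and 1255 to 4227 and 4690.5 CPM. The part of these cells and programmes in the levels of the 35 targets was not tested.

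In Kansl1 cKO at P0.5, 34 of the 35 genes passed the filter, Gdf15 being the exception, and 0 were called in either direction, by edgeR or by DESeq2, where 0.00% of all 13031 genes tested were called in edgeR and 0.282% were called higher and 0.443% lower in DESeq2. At an unadjusted p under 0.05, 6 of the 34 were higher and 1 lower, beside 7.43% and 8.26% of all genes. Their median log2 fold change was 0.17, against 0.01 over all genes, and both Kansl1 cKO libraries lay above both controls for 13 of the 34 and below both for 5, beside 26.0% and 22.7% of all genes tested. The 13 were Plk2, Psrc1, Ptp4a3, Zmat3, Bbc3, Eda2r, Apaf1, Phlda3, Ccng1, Trp53inp1, Polk, Sesn2 and Ephx1, and the 5 were Bax, Rrm2b, 9630033F20Rik, Dcxr and Abhd4. A p that missed the threshold does not show that levels were equal, and standard errors ran from 0.16 to 0.47 on the log2 scale.

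The 6 higher genes were Psrc1, Zmat3, Bbc3, Eda2r, Apaf1 and Ephx1. Ephx1 had the smallest p, at 30.4 and 24.9 CPM in control and 52.6 and 52.5 CPM in Kansl1 cKO (log2 fold change 0.93, standard error 0.17, adjusted p = 0.176, edgeR). Eda2r had the largest fold change, from 2.18 and 2.26 to 4.12 and 6.80 CPM (log2 fold change 1.28, standard error 0.38, adjusted p = 0.229, edgeR). For both genes the Kansl1 cKO libraries lay above the controls without overlap. Apaf1 was at 15.2 and 20.04 CPM in control and 34.5 and 28.3 CPM in Kansl1 cKO, and Bbc3 at 5.73 and 6.66 and 10.9 and 9.64 CPM. Zmat3 was at 8.14 and 8.79 and 13.4 and 12.6 CPM and Psrc1 at 14.4 and 20.04 and 29.1 and 23.6 CPM. In none of these 4 did the genotypes overlap, and the fold changes were between 1.52 in Psrc1 and 1.77 in Apaf1, short of the adjusted threshold. The 1 lower gene was 9630033F20Rik, at 7.68 and 8.28 CPM in control and 3.88 and 3.79 CPM in Kansl1 cKO (log2 fold change -1.06, standard error 0.27, adjusted p = 0.206, edgeR).

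**Figure D4:**
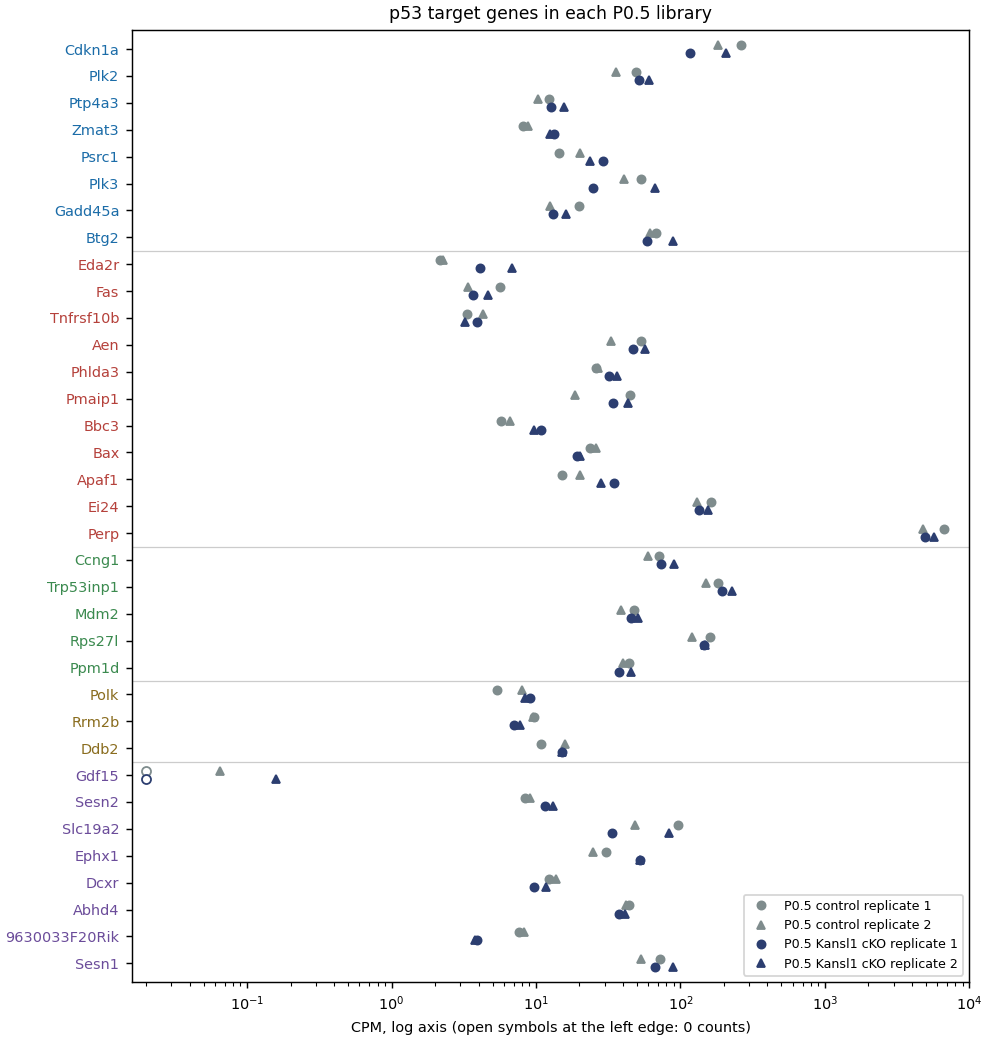
Level of each p53 target gene in the 4 P0.5 libraries, in CPM on a log axis, with grey for control, blue for Kansl1 cKO, circles for replicate 1 and triangles for replicate 2. Blue points lie above both grey points for 13 of the 34 tested genes and below both for 5, beside 26.0% and 22.7% of all genes tested. For the rest the genotypes overlap. Open symbols at the left edge of the Gdf15 row are libraries with 0 counts.

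By role, log2 fold changes in Kansl1 cKO had a median of 0.25 for the arrest genes, from -0.46 in Cdkn1a to 0.61 in Zmat3. Cdkn1a was at 262 and 183 CPM in control and 117 and 207 CPM in Kansl1 cKO. The apoptosis genes had a median of 0.28 and ran from -0.34 in Bax, at 23.6 and 26.2 CPM in control and 19.2 and 20.2 CPM in Kansl1 cKO, to Eda2r. Fas, Tnfrsf10b and Perp had log2 fold changes of -0.09, -0.09 and -0.11, with overlapping libraries. The feedback genes had a median of 0.16 and ran from -0.02 in Ppm1d, at 44.1 and 39.7 and 37.7 and 45.2 CPM, to 0.35 in Trp53inp1, at 181 and 149.6 and 193 and 229 CPM. Of the repair genes, Polk was at 5.39 and 8.02 CPM in control and 9.11 and 8.38 CPM in Kansl1 cKO and Rrm2b at 9.62 and 9.50 and 7.02 and 7.75 CPM, with log2 fold changes of 0.37 and -0.37. The stress and metabolism genes had a median of -0.12 and ran from 9630033F20Rik to Ephx1, with Sesn1 at 71.8 and 53.7 CPM in control and 66.2 and 88.5 CPM in Kansl1 cKO and Sesn2 at 8.36 and 9.12 and 11.5 and 13.2 CPM. Gdf15 had 0 and 1 counts in control and 0 and 2 counts in Kansl1 cKO.

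Several targets spread as widely within a genotype as between genotypes at P0.5. Slc19a2 was at 96.2 and 48.1 CPM in the 2 controls and 33.3 and 83.9 CPM in the 2 Kansl1 cKO libraries, and Plk3 at 53.2 and 40.5 and 24.6 and 67.1 CPM. The suprabasal keratin Krt1 was at 35393 and 18084 CPM in control and 20488 and 31016 CPM in Kansl1 cKO, so that control replicate 1 and Kansl1 cKO replicate 2 were the higher library of each genotype for Krt1, Slc19a2, Plk3 and Cdkn1a. Melanocyte markers summed to 461 to 508 CPM in control and 981 to 1106 CPM in Kansl1 cKO, macrophage markers to 189 to 223 and 286 to 311 CPM, and dermal fibroblast markers to 1092 to 1748 and 738 to 926 CPM. The part of these differences in the target levels was not tested.

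Trp53 was at 62.3 and 89.5 CPM in P0.5 control and 117 and 98.5 CPM in Kansl1 cKO, with both Kansl1 cKO libraries above both controls (log2 fold change 0.50, standard error 0.21, adjusted p = 0.325, edgeR). Mdm4 had a log2 fold change of 0.31. In the lists kept apart from the 35 genes, 0 of 19 regulators, 0 of 25 other targets, 0 of 12 ATF4 genes and 0 of 15 immediate early genes were called in edgeR or in DESeq2, and at an unadjusted p under 0.05 these lists held 3, 3, 2 and 3 genes higher and 0, 2, 0 and 0 lower. The smallest p-values belonged to Trp73, Trp63 and Chek2 among the regulators (0.65, 0.40 and 1.01 as log2 fold changes), and to Kitl, Fbxo22 and Triap1 among the other targets (0.70, -0.64 and -0.49). Among the ATF4 genes they belonged to Atf3, Phgdh and Herpud1, with log2 fold changes of 1.79, 0.47 and -0.42, and among the immediate early genes to Jun, Jund and Dusp1, with 0.73, 0.49 and 0.66.

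The difference between the effects was tested directly, as the MOF effect minus the Kansl1 effect in one edgeR fit over the 4 groups. Of the 35 genes, 14 differed above the thresholds, all with the larger rise in MOF cKO, and 0 differed the other way, where 1.76% and 1.17% of 14565 genes did. At an unadjusted p under 0.05, 27 were above 0 and 2 below, beside 14.8% and 16.4% of all genes, and DESeq2 called 22 above and 0 below, beside 6.61% and 3.46%. The median difference was 1.41 on the log2 scale, against -0.07 over all genes. The 14 included 4 of the 8 arrest genes (Cdkn1a, Plk2, Ptp4a3 and Zmat3), 5 of the 11 apoptosis genes (Bax, Tnfrsf10b, Eda2r, Aen and Phlda3), 3 of the 5 feedback genes (Mdm2, Ccng1 and Trp53inp1), and Sesn2 and Dcxr. The clearest was Ccng1, with log2 fold changes of 2.85 in MOF cKO and 0.33 in Kansl1 cKO and a difference of 2.49 (standard error 0.22, adjusted p = 0.000687, edgeR). Apaf1 was among those not called, with 1.03 in MOF cKO, 0.83 in Kansl1 cKO and a difference of 0.17 (standard error 0.27, adjusted p = 0.702, edgeR).

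That count was unstable: it was 22 in DESeq2, 0 with the replicate number as a block (1 among all genes), and between 2 and 14 with 1 library left out. It fell without either E16.5 control, either MOF cKO library, P0.5 control replicate 1 or Kansl1 cKO replicate 1. The count over all genes, 256 in the main fit, fell in each of these cases too. Gene deleted, stage, isolation, sequencing instrument and sex of the cKO libraries changed together between the experiments and cannot be told apart.

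Set per kilobase of exon and scaled over all 8 libraries, the targets covered a wide range of levels. In E16.5 control the highest was Perp, at 479 ± 12.8 CPM per kb (SD, n = 2), followed by Btg2 at 105 ± 41.5 and Rps27l at 65.3 ± 3.56, and the lowest that was detected in both libraries was Eda2r at 0.207 ± 0.0524. Levels in the 2 controls differed too, with stage, isolation and sequencing instrument changing together. Perp stood at 3134 ± 729 CPM per kb in P0.5 control, Cdkn1a at 27.8 ± 7.02 in E16.5 control and 67.0 ± 16.6 in P0.5 control, and Trp53inp1 at 5.13 ± 0.134 and 27.4 ± 3.56. Btg2, Plk2 and Sesn2 went the other way, with 25.3 ± 1.68, 10.1 ± 2.14 and 2.70 ± 0.178 CPM per kb in P0.5 control against 105 ± 41.5, 17.0 ± 0.545 and 7.12 ± 0.0190 in E16.5 control.

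Set beside these, MOF cKO held 136 ± 31.7 CPM per kb of Cdkn1a, 81.2 ± 9.35 of Plk2, 78.2 ± 6.48 of Ccng1 and 30.3 ± 2.61 of Mdm2, each above all of the other 6 libraries. Trp53inp1 in MOF cKO, at 32.5 ± 4.02 CPM per kb, overlapped the range of P0.5 libraries, and Slc19a2, at 10.8 ± 0.146, and Perp, at 779 ± 42.8, were below the means of both P0.5 groups.

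**Figure D5:**
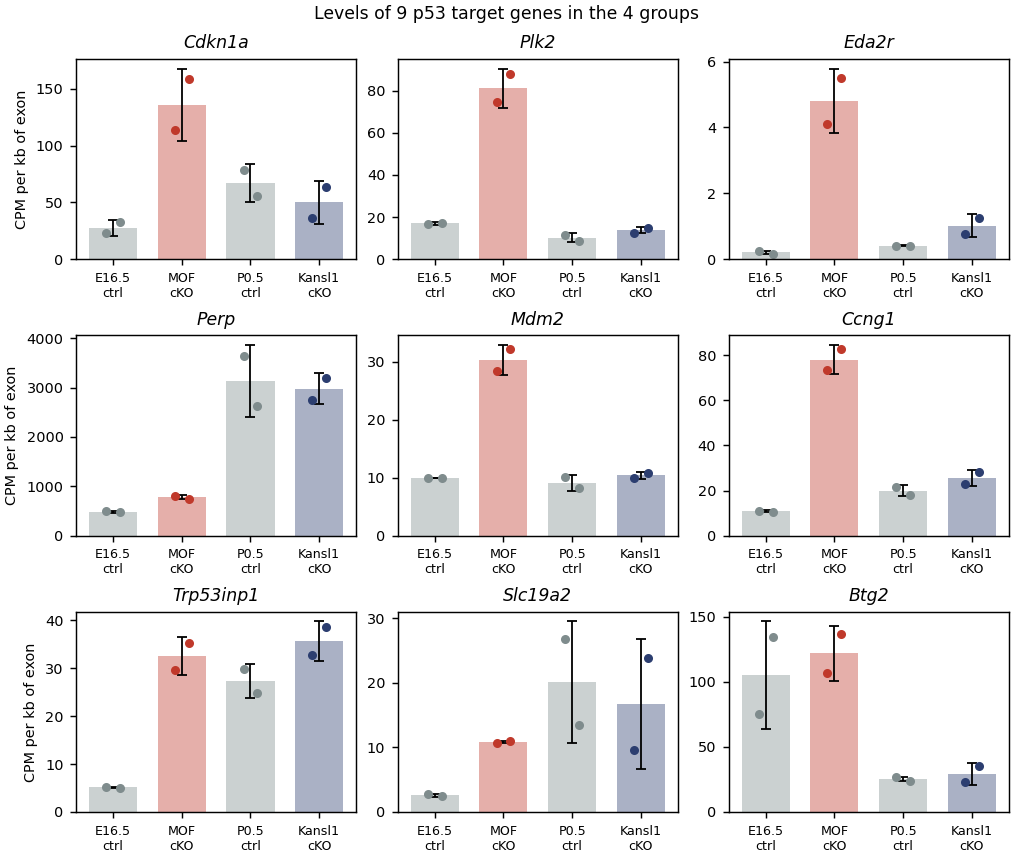
Mean level in CPM per kb of exon (bars), SD (error bars, n = 2) and each library (points) for 9 p53 target genes in the 4 groups, E16.5 control and P0.5 control in grey, MOF cKO in red and Kansl1 cKO in blue. Cdkn1a, Plk2, Eda2r, Mdm2 and Ccng1 are highest in both MOF cKO libraries, and Perp is highest in the P0.5 libraries. Each panel has its own vertical scale from 0.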

How the data were processed

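Polyadenylated RNA of 8 libraries was sequenced from directional libraries, 2 in each of 4 groups set by GEO's labels. The authors mapped reads to mm10 and deposited raw HTSeq read counts per gene and library, without scaling. The submitters' processing notes name TopHat2 and the study's methods HISAT2 as the aligner, and the strand setting of the counting is not given in the sources used here. Entries that name no gene held 21.1% to 26.0% of reads and were left out. Replicates differed by more than sampling noise.

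Tests used edgeR 4.0.16 in R 4.3.3 (filterByExpr, TMM, quasi-likelihood test, Benjamini-Hochberg adjustment over all genes tested), each experiment alone, and in one fit over the 4 groups for the difference between effects. Calls used the study's thresholds, an adjusted p of 0.01 and a fold change of 1.5. Standard errors were the log2 fold change over the square root of the F statistic. Scripts were tested on simulated data. Coordinates and exon lengths came from GENCODE M21, matched to 98.2% of 23432 symbols, and promoter sequences from RefSeq (GRCm38.p6). Alternatives were DESeq2 1.42.0, other scalings, no filter, the replicate block, an adjusted p of 0.05, one fit over all libraries and leaving out each library.

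The members and lists were chosen with earlier results of these data known. Library values are given for members called in a comparison and for the largest and smallest log2 fold change of each group, and for the 3 genes of each other list with the smallest p.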

Additional observations from a re-analysis of the deposited data

Results flagged for a closer look

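The MOF effect and the Kansl1 effect differed by edgeR's test of the difference itself for 14 of the 35 p53 targets, each with the larger rise in MOF cKO, where 1.76% of all genes differed in that direction and 1.17% in the other. That count was 0 of the 35 once replicate number entered as a block, with 1 left among all genes. Leaving out most single libraries lowered it, and lowered the count over all genes as well. On the log2 scale the differences were 3.22 for Eda2r, 2.72 for Cdkn1a, 2.49 for Ccng1, 2.42 for Tnfrsf10b, 2.28 for Trp53inp1, 1.88 for Aen and 1.87 for Ptp4a3. They were 1.82 for Plk2, 1.69 for Dcxr, 1.61 for Phlda3, 1.59 for Sesn2, 1.59 for Bax, 1.42 for Mdm2 and 1.41 for Zmat3. The adjusted p of these genes ran from 0.000687 in Ccng1 to 0.00944 in Ptp4a3 (edgeR). In Kansl1 cKO itself 3 of the 14, Cdkn1a, Bax and Dcxr, had log2 fold changes under -0.28, of -0.46, -0.34 and -0.29, none of them called. Deleted gene, stage, isolation, sequencing instrument and sex of the cKO libraries cannot be told apart in these differences. Groups of 2 libraries were too small for a check of single libraries that stand apart.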

How the results depend on the processing

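In MOF cKO the count of targets called higher was 25 to 29 over all alternatives, and each of the 28 stayed called except Gadd45a, Perp and Ppm1d with library size alone and Plk3 and Perp in one fit over all 8 libraries. The count of targets called lower, 1 in the reported fit, was 2 (Ddb2 and Sesn1) with DESeq2, library size alone, upper-quartile factors, every gene with a count, the replicate block and an adjusted p of 0.05, was 0 in one fit over all 8 libraries, and was 0 to 1 with a library left out (0 without MOF cKO replicate 1). In Kansl1 cKO, where 0 were called, 1 was called higher (Ephx1) with every gene with a count. Over all genes that setting called 73 higher and 117 lower, against 0 in the reported fit. Slc19a2 (-1.11) passed as lower without Kansl1 cKO replicate 2, where more of all genes passed as well. The number of targets whose effects differed, 14, was 22 with DESeq2 and 25 with every gene with a count. It was 22 with an adjusted p of 0.05 (and 2 the other way) and 0 with the replicate block. Over all genes these settings gave 940, 1112, 1026 (985 the other way) and 1, against 256 in the reported fit. The number of targets fell with most single libraries left out, as did the count over all genes. The median log2 fold change of the 35 targets in MOF cKO was 1.26 with library size alone and 1.37 to 1.70 with a library left out. The causes were not tested.

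Signs turned for values near 0. In MOF cKO, Btg2 was -0.084 with library size alone, and the ranges with a library left out were Btg2 -0.14 to 0.69 and 9630033F20Rik -0.40 to 0.22. In Kansl1 cKO one fit over all 8 libraries gave 0.019 for Ei24 and 0.016 for Ppm1d. With a library left out, the ranges that crossed 0 there were Gadd45a -0.48 to 0.21, Btg2 -0.15 to 0.42, Plk3 -0.92 to 0.49, Pmaip1 -0.25 to 1.04, Fas -0.47 to 0.30, Tnfrsf10b -0.27 to 0.085, Perp -0.36 to 0.16, Aen -0.062 to 0.65, Ei24 -0.21 to 0.17, Mdm2 -0.026 to 0.32, Ppm1d -0.15 to 0.076, Rps27l -0.16 to 0.29, Ddb2 -0.067 to 0.45 and Slc19a2 -1.11 to 0.28. For the difference, library size alone gave -0.20 for Btg2 and -0.048 for Apaf1, and leaving out a library gave Btg2 -0.36 to 0.62, Apaf1 -0.065 to 0.41 and Rrm2b -1.03 to 0.23.

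Same-numbered libraries deviated together at E16.5 (correlation 0.25) and oppositely at P0.5 (-0.26), with 2 pairs each, so the numbers were not taken to pair samples. The replicate block left 28 targets called higher in MOF cKO. A crossed block at P0.5, chosen after seeing the data, called 0 targets. A group left with 1 library was assumed to vary like the others. Gdf15 was the 1 target with too few counts to be tested at P0.5.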
